A study of Sus scrofa with 24 samples.

Results

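The comparison described here set the venous anastomosis against the vein segment downstream of it, 14 days after pigs had received an arteriovenous haemodialysis graft, a conduit sewn between an artery and a vein. Its members were the 8 samples whose labels name these sites and this day, 4 of the venous anastomosis and 4 of the downstream vein, out of 24 samples in the whole series. The series also holds 4 samples of each of these sites at day 5 and 4 samples of the external jugular vein, the ungrafted control, at each day. All were total RNA of pig vein on Agilent arrays of 2 colours, and per the series' design text the 4 experiments used different biological replicates. The labels give no breed, sex, age or genotype, and they do not say whether the sites of 1 replicate number came from the same animal. Anastomosis and downstream samples were both in Cy5, so the dye does not differ between them. Their Cy3 partners did differ, a jugular control for the anastomosis and an unlabelled channel for the downstream vein.

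Grafts of this kind fail when the vein near the junction narrows through growth of its inner layer, a process called neointimal hyperplasia. The series' title contrasts vein regions that are susceptible to it with regions that are resistant. In such a wall, smooth muscle cells and fibroblasts can divide and lay down collagen and matricellular proteins, while monocytes enter, become macrophages and may fuse into multinucleated cells that degrade matrix.

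The 8 samples were measured at like brightness, with 71.3% to 78.7% of probes well above background at the anastomosis and 73.6% to 80.2% in the downstream vein. Sites of the same replicate number lay on 1 slide, the anastomosis always on the array position before the downstream vein, so position and site cannot be told apart. The fit covered 33345 features, 5766 of them named by a gene symbol. Levels below are normalised log2 intensities, with n = 4 per site throughout. Differences are anastomosis minus downstream on the log2 scale with the standard error (SE) of limma. The SE and p-values rest on 1 fit of all 24 samples, which share its estimate of the spread. A whole-tissue level cannot tell fewer cells of a type from less RNA per cell.

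The replicates did not behave alike, and this touches each result. Across features, the differences of pairs 1, 2 and 4 correlated with each other at 0.21, 0.40 and 0.39, whereas those of pair 3 correlated with pairs 1, 2 and 4 at -0.09, -0.24 and -0.34; these values describe features of the same libraries. The 18 fat cell genes on the list varied widely: their mean level was 10.05, 10.63, 13.81 and 10.71 in anastomosis replicates 1 to 4, and 9.57, 13.68, 10.75 and 12.81 in downstream replicates 1 to 4. Anastomosis replicate 3 and downstream replicates 2 and 4 were thus the fat-rich samples, and the sites overlapped. For adiponectin (ADIPOQ), a hormone of fat cells, the pair differences were 1.78, -8.38, 4.38 and -3.83. The part of these markers in the results below was not tested. Replicate 4 carries a doubt of another kind. In the authors' deposited value table, each of the 18 columns of replicates 1 to 3 followed its own scanner file most closely of all files (r of 0.56 to 0.75 on values centred per probe), but 0 of the 6 columns of replicate 4 did (r of 0.01 to 0.46). The scanner files were used here, and the counts over all features are also given without anastomosis replicate 3 and without replicate 4, as are the values of several genes.

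**Figure D1:**
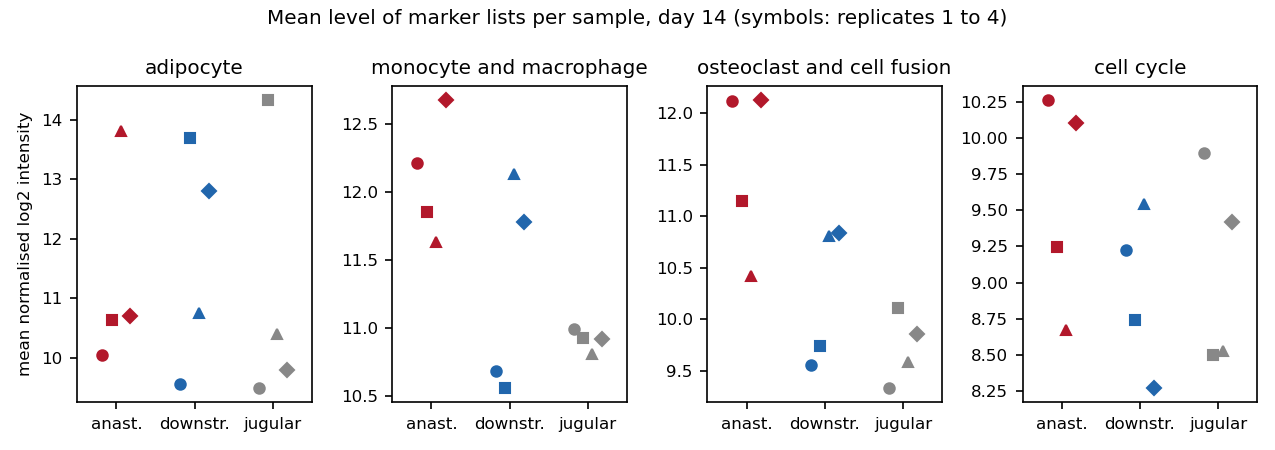
Mean normalised log2 intensity (y axis) of 4 marker lists in each day 14 sample, by site (x axis: anastomosis in red, downstream vein in blue, jugular control in grey), with circles, squares, triangles and diamonds for replicates 1 to 4. Fat cell genes were high in anastomosis replicate 3 (13.81) and in downstream replicates 2 (13.68) and 4 (12.81), and macrophage genes in downstream replicates 3 (12.13) and 4 (11.78) reached the range of the anastomosis.

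The comparison asked which genes differ between the junction and the vein beyond it at the later time. With all samples, 0 of 33345 features passed an adjusted p of 0.05 (limma, Benjamini-Hochberg; lowest adjusted p = 0.114), and 4708 features (14.1%) had an unadjusted p under 0.05, 2468 higher (7.4%) and 2240 lower (6.72%) at the anastomosis. Every anastomosis sample lay above every downstream sample for 318 features (0.954%) and below for 306 (0.918%). The 4 pairs agreed on a higher level for 2300 features (6.9%) and on a lower one for 2657 (7.97%). Without anastomosis replicate 3, a choice made after the data were seen, 642 features passed, 422 higher (1.27%) and 220 lower (0.66%). Without replicate 4, 0 passed. The genes named below are therefore described by their values, and none of them passed the test in the fit of all 24 samples. With the 8 compared samples alone, 0 features passed (limma, lowest adjusted p = 0.716, 3 residual degrees of freedom), and 2217 had an unadjusted p under 0.05.

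The 24 named genes with the lowest p (12 in each direction) were chosen by that p and by 4 agreeing pairs. Of these, 6 of the higher and 8 of the lower ones did not overlap between the sites, beside 0.954% and 0.918% of all features. Without anastomosis replicate 3, 12 of the higher and 8 of the lower genes passed the adjusted threshold, beside 1.27% and 0.66% of all features. Without replicate 4 it was 0 and 0. The genes were chosen on these same samples, so the counts of non-overlapping and passing genes are no separate support. The probes of 6 of these genes are shown because each value rests on 1 short sequence. They are bases 1 to 30 of the 60-base probe, 5′ to 3′, as the array files give them.
COL11A1: gatgccagatttcactggaacatttcaact
SOX9: acattccaagacagaaacattagctatcca
ACP5: aaggaaagctctctcctgggtcaggcatcc
MSR1: gaagatgctggagtcacctgcactacataa
ABCB1: tgcttctggatgaagctacatcggctctgg
SCARA5: ccaggcctaaaatgcagcagaccttttgta

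COL11A1 encodes a chain of type XI collagen, a minor fibrillar collagen best known from cartilage. Its level was 8.32, 10.95, 9.97 and 9.42 at the anastomosis, against 6.84, 7.0, 7.26 and 7.16 in the downstream vein. The sites did not overlap, and pair 3 behaved like the others. The difference was 2.60 ± 0.48 (6.05-fold, limma adjusted p = 0.115), 2.46 without anastomosis replicate 3 (adjusted p = 0.0384) and 2.71 without replicate 4 (adjusted p = 0.403). The other tested probe of COL11A1 gave a mean pair difference of 1.74. SOX9, the transcription factor that directs cartilage formation, stood at 7.72, 7.68, 7.53 and 7.0 at the anastomosis and at 6.50, 6.73, 6.77 and 6.63 downstream. Again no sample overlapped, although the difference was smaller, 0.82 ± 0.15 (1.77-fold, limma adjusted p = 0.115). The list of cartilage and bone matrix genes as a whole had a median difference of 0.14, with 3 of 14 members higher and 1 lower at an unadjusted p under 0.05, beside 7.4% and 6.72% of all features. IBSP (bone sialoprotein) had pair differences of 5.85, 1.53, -1.19 and 6.22, and SPP1 (osteopontin, a secreted phosphoprotein of bone and of macrophages) 3.58, 1.64, -2.95 and 4.65. Both were thus far higher at the anastomosis in pairs 1 and 4 and lower in pair 3. Their differences were 3.10 ± 1.07 and 1.73 ± 1.06 (limma adjusted p = 0.235 and 0.477). For IBSP the difference was 4.22 without anastomosis replicate 3 and 2.07 without replicate 4, and for SPP1 it was 2.93 and 0.76, so the size for both genes depended on these samples.

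**Figure D2:**
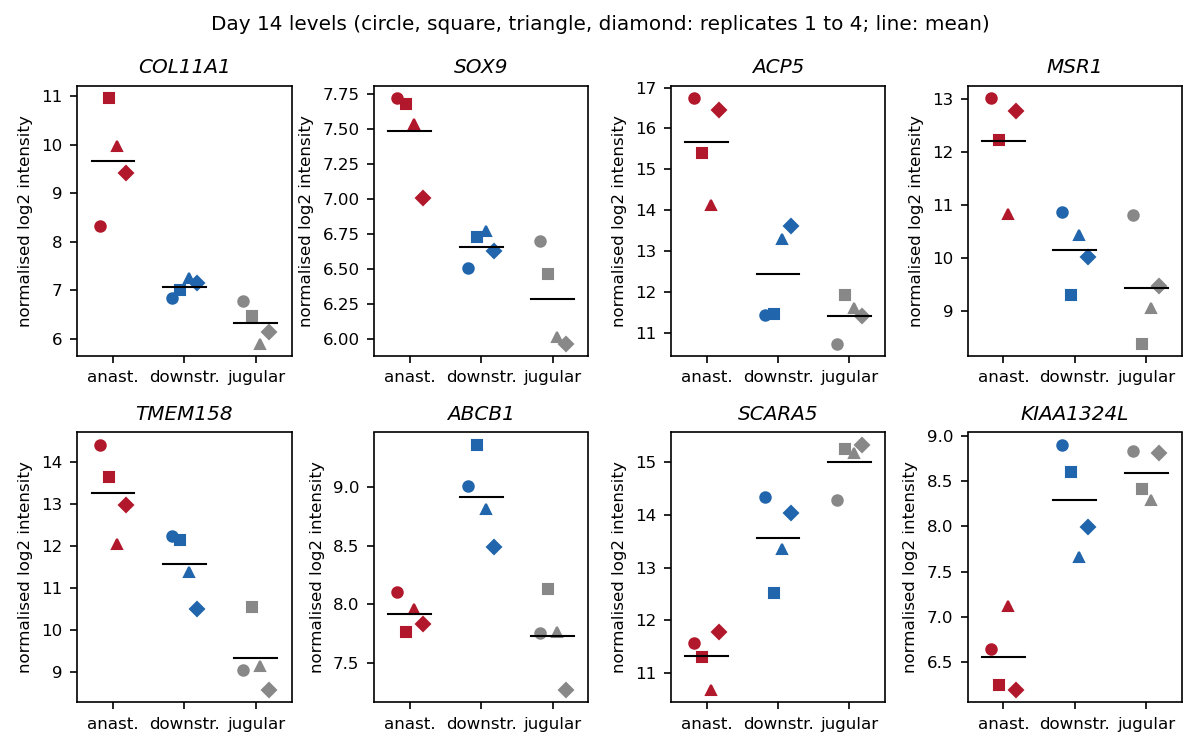
Normalised log2 intensity (y axes) of 8 genes in each day 14 sample, by site (x axis: anastomosis in red, downstream vein in blue, jugular control in grey), with circles, squares, triangles and diamonds for replicates 1 to 4 and a line at the mean. The anastomosis samples lay above all downstream samples for COL11A1, SOX9 and ACP5 and below them for ABCB1, SCARA5 and KIAA1324L, while MSR1 and TMEM158 overlapped through anastomosis replicate 3.

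ACP5 encodes tartrate-resistant acid phosphatase, the enzyme by which osteoclasts and some macrophages are recognised. It was at 16.74, 15.41, 14.14 and 16.44 at the anastomosis, against 11.44, 11.48, 13.30 and 13.61 downstream. All anastomosis samples were higher, and anastomosis replicate 3 was the lowest of them. The difference of 3.23 ± 0.67 was 9.35-fold (limma adjusted p = 0.121), 3.91 without anastomosis replicate 3 (adjusted p = 0.0142) and 3.36 without replicate 4 (adjusted p = 0.405). ATP6V0D2, a proton pump subunit that osteoclasts need for cell fusion, had pair differences of 2.51, 0.97, 0.20 and 1.89. The gene lists were chosen with earlier results of these data known, so counts of their members are no separate support. Of the 12 osteoclast and cell fusion genes tested, 7 were higher and 0 lower at an unadjusted p under 0.05, beside 7.4% and 6.72% of all features. Their median difference was 0.94, beside -0.01 over all features. In pairs 1 to 4 that median was 2.01, 0.83, -0.08 and 1.06, so pair 3 showed no such shift. Without anastomosis replicate 3, 4 of the 12 passed the adjusted threshold, all higher, beside 1.27% higher of all features. Without replicate 4, 0 of all features passed, and so none of the 12.

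Macrophage genes were also higher at the anastomosis in pairs 1, 2 and 4. MSR1, a scavenger receptor that takes up modified lipoproteins, was at 13.02, 12.24, 10.83 and 12.78 at the anastomosis and at 10.87, 9.30, 10.43 and 10.02 downstream. Only anastomosis replicate 3 came within the downstream range. The difference was 2.06 ± 0.39 (4.17-fold, limma adjusted p = 0.115). It was 2.51 without that sample (limma adjusted p = 0.00665) and 1.83 without replicate 4 (limma adjusted p = 0.405). The other tested probe of MSR1 gave a mean pair difference of 1.41. CD68, a lysosomal protein of macrophages, was at 14.40, 14.12, 14.80 and 15.53 against 12.47, 12.09, 14.77 and 14.63 downstream. The anastomosis was higher by 1.93, 2.03 and 0.89 in pairs 1, 2 and 4, and the sites were level in pair 3 (0.02). The ranges overlapped, because downstream replicates 3 and 4 lay within that of the anastomosis. The haemoglobin scavenger receptor CD163 did not overlap between the sites, with 14.56, 14.76, 14.23 and 14.51 at the anastomosis and 13.86, 12.28, 13.97 and 14.04 downstream (0.98 ± 0.28, limma adjusted p = 0.176). Of 21 monocyte and macrophage genes, 11 were higher and 0 lower at an unadjusted p under 0.05, beside 7.4% and 6.72% of all features. Their median was 0.83, with pair medians of 1.69, 1.11, -0.23 and 0.69. Without anastomosis replicate 3, 4 of the 21 passed, all higher, beside 1.27% higher of all features. Without replicate 4, 0 of all features passed, so none of these genes did. The signalling adaptor TYROBP stands on both this list and the osteoclast list.

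Other genes with low p-values on the higher side had varied known roles. TMEM158, a transmembrane protein that Ras activity induces, was at 14.42, 13.64, 12.04 and 12.98 at the anastomosis, against 12.23, 12.14, 11.37 and 10.51 downstream. It was higher in each pair, and the sites overlapped through anastomosis replicate 3 (1.71 ± 0.31, 3.27-fold, limma adjusted p = 0.114). PHYHIPL was at 12.26, 11.73, 10.74 and 10.84 at the anastomosis, against 8.75, 8.80, 9.33 and 8.92 downstream, with no overlap (2.45 ± 0.43, 5.45-fold, limma adjusted p = 0.114). ADAM28, a membrane-bound metalloprotease, differed by 1.69 ± 0.32, the phospholipid transfer protein PLTP by 1.43 ± 0.29, the secreted kinase PKDCC by 1.41 ± 0.29 and the actin-regulating formin FMNL3 by 1.24 ± 0.24. COASY, an enzyme of coenzyme A synthesis, had the smallest of these differences (0.40 ± 0.08), with pair values of 0.66, 0.43, 0.33 and 0.18. These values are of the brightest probe. The other tested probe gave a mean pair difference of 0.26 for ADAM28, 0.72 for PLTP and 0.39 for COASY. The reference genes ACTB and PPIA differed by 0.16 ± 0.23 and -0.04 ± 0.15, and the probes of PPIA disagreed in sign.

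The lists of other leukocytes held 0 or 1 gene in either direction at an unadjusted p under 0.05, beside 7.4% higher and 6.72% lower of all features, and 3 to 20 of their genes were tested. The list of T and NK cell genes had a median difference of -0.05 (1 of 20 higher and 0 lower). Neutrophil genes had a median of -0.11 (0 higher and 1 lower of 4), and B and plasma cell genes one of -0.29 (0 higher and 1 lower of 3). MHC class II and dendritic cell genes had a median of 0.23 (0 higher and 0 lower of 13), with pair medians of 1.20, 0.56, -1.32 and 0.50. Inflammatory cytokines and chemokines had a median of -0.42 (1 higher and 2 lower of 25). CXCL9, an interferon-induced chemokine that draws T cells, was lower at the anastomosis in 4 of 4 pairs (-1.07 ± 0.40, limma adjusted p = 0.26). Among 25 interferon response genes, 0 were higher and 3 lower at an unadjusted p under 0.05 (median -0.26).

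Protease and matrix lists differed among themselves and between pairs. Cathepsin K (CTSK), a collagen-degrading protease, had pair differences of 0.99, 1.17, 0.59 and 0.04, and MMP14, a membrane-bound collagenase, 1.77, 2.10, 0.89 and -0.33. Pair 4 showed almost no difference for CTSK and the opposite direction for MMP14. Of 21 matrix proteases and inhibitors, 6 were higher and 0 lower at an unadjusted p under 0.05 (median 0.46). For this and the other lists of this paragraph, the shares over all features were 7.4% higher and 6.72% lower. The matricellular list had 3 of 16 members higher and 1 lower at an unadjusted p under 0.05, with a median of 0.20. Its pair medians were 0.11, 1.46, -0.03 and -0.23. Periostin (POSTN), a matricellular protein of healing tissue, was at 15.79, 15.31, 15.30 and 15.76 at the anastomosis, against 14.33, 12.98, 14.97 and 14.40 downstream. Its sites did not overlap (1.37 ± 0.48, limma adjusted p = 0.246). Tenascin N (TNN) had pair differences of 2.85, 5.03, 1.52 and -0.49, and thrombospondin 4 (THBS4) 2.96, 2.59, 0.99 and -1.22. Both were lower at the anastomosis only in pair 4. Tenascin C (TNC), of the same family as TNN, had no common direction, with pair differences of -0.87, 2.82, 0.89 and -0.17. The fibrillar and network collagens had 6 of 16 members higher and 1 lower at an unadjusted p under 0.05, with a median of 0.50. Their pair medians were 0.34, 1.88, -0.06 and -0.45, with pair 2 the highest. COL1A1 and COL3A1, the main collagens of the vein wall, differed by 0.10 ± 0.36 and -0.23 ± 0.40, and their probes disagreed in sign. Without replicate 4 these were 0.48 and 0.04. Proteoglycan and hyaluronan genes had 3 of 14 members higher and 2 lower (median 0.10), collagen processing genes 2 of 6 higher and 0 lower (median 0.19), and elastic fibre genes 0 of 6 higher and 0 lower (median -0.37).

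**Figure D3:**
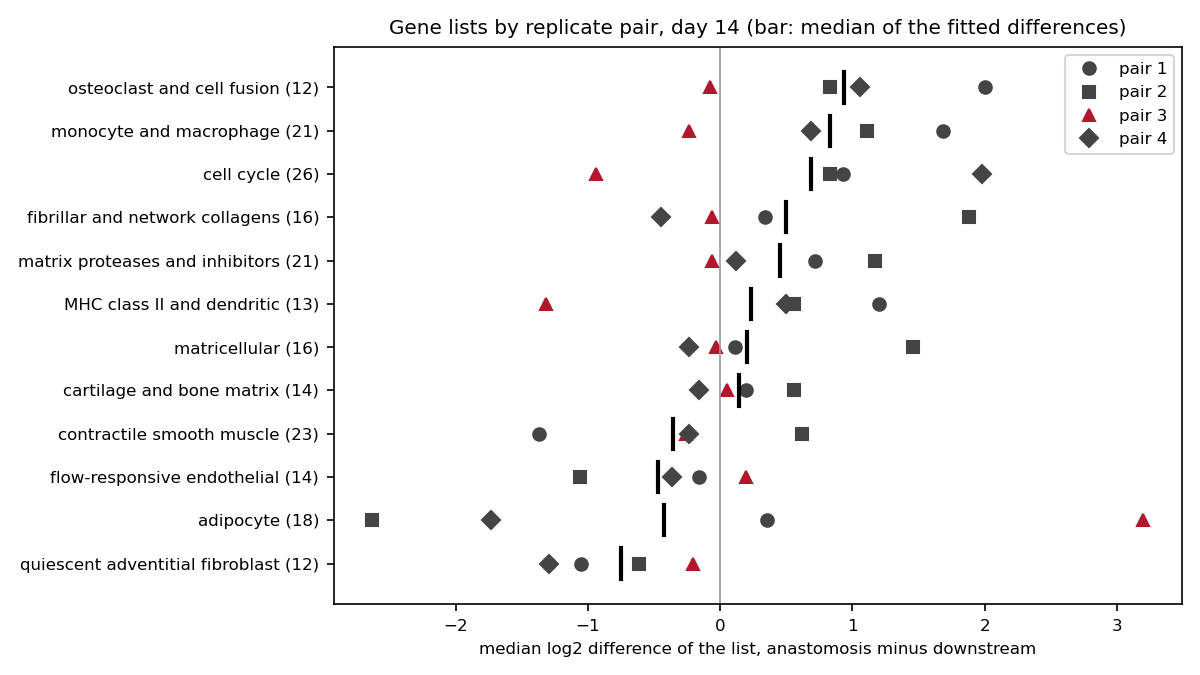
Median log2 difference, anastomosis minus downstream at day 14 (x axis), of 12 gene lists with the number of tested members in brackets (y axis), for each replicate pair (circle, square, triangle and diamond for pairs 1 to 4, pair 3 in red) and for the fitted differences (black bar). Pair 3 lay at or below 0 for the osteoclast, macrophage and cell cycle lists (-0.08, -0.23 and -0.94) and at 3.20 for fat cell genes.

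The lists of dividing cells, muscle and endothelium differed in sign between pairs. The cell cycle list had a median of 0.69 with pair medians of 0.93, 0.83, -0.94 and 1.98, and 1 of 26 members was higher at an unadjusted p under 0.05. For this and the other lists of this paragraph, the shares over all features were 7.4% higher and 6.72% lower. CCNB1, the cyclin of mitotic entry, was at 10.71, 9.81, 9.16 and 11.44 at the anastomosis and at 9.51, 8.87, 10.51 and 8.48 downstream, higher in 3 of 4 pairs. Its difference of 0.93 ± 0.56 (limma adjusted p = 0.468) was 0.26 without replicate 4 and 1.45 without anastomosis replicate 3. CDC25C, a phosphatase of mitotic entry, was the exception with a higher level in 4 of 4 pairs (0.67 ± 0.30, limma adjusted p = 0.343). Of 23 contractile smooth muscle genes, 0 were higher and 1 lower at an unadjusted p under 0.05, with a median of -0.36. MYH11, the smooth muscle myosin heavy chain, had pair differences of -2.18, 1.22, -0.88 and -0.94, and smooth muscle actin (ACTA2) -0.71, 1.08, -0.25 and 0.86. PDLIM3, a scaffold protein of muscle, was lower in 4 of 4 pairs without overlap (-1.75 ± 0.62, limma adjusted p = 0.246). The endothelial list had pair medians of -0.33, -0.74, 0.08 and 0.10 (2 of 14 higher and 1 lower at an unadjusted p under 0.05), and within it the transcription factor SOX18 was higher in 4 of 4 pairs (0.62 ± 0.20, limma adjusted p = 0.204). The endothelial adhesion molecule PECAM1 differed by -0.09 ± 0.26 and the VEGF receptor KDR by -0.04 ± 0.33; the probes of each gene disagreed in sign. KLF4, a transcription factor of the flow-responsive endothelial list, was at 10.01, 9.85, 12.75 and 11.31 at the anastomosis, against 12.07, 12.40, 11.89 and 13.27 downstream. It was lower in 3 pairs and higher in pair 3. That list had 0 of 14 members higher and 3 lower at an unadjusted p under 0.05 (median -0.47).

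Among the genes lower at the anastomosis, SCARA5, a ferritin receptor of resting fibroblasts, was at 11.58, 11.30, 10.68 and 11.77 at the anastomosis, against 14.34, 12.51, 13.35 and 14.04 downstream. No sample overlapped, and pair 3 was among the larger differences. The difference was -2.23 ± 0.50 (4.68-fold lower, limma adjusted p = 0.13) and -2.02 without anastomosis replicate 3 (adjusted p = 0.0761). In the jugular control the mean level was 15.01, so the downstream vein lay between control and anastomosis, with dye and site confounded against the control. Of 12 quiescent adventitial fibroblast genes, 0 were higher and 4 lower at an unadjusted p under 0.05, beside 7.4% and 6.72% of all features. The median of the 12 genes was -0.75 and lay below 0 in each pair (-1.05, -0.61, -0.21 and -1.29). ABCB1, an efflux transporter, was at 8.11, 7.77, 7.96 and 7.83 at the anastomosis, against 9.01, 9.36, 8.81 and 8.49 downstream. This gene had the lowest p among named genes (-1.0 ± 0.16, limma adjusted p = 0.114). Its jugular control mean was 7.73, near that of the anastomosis (7.92), again with the dye confounded. BMP5, a bone morphogenetic protein, showed the same order, with means of 6.72 ± 0.33 at the anastomosis, 7.65 ± 0.67 downstream (SD) and 6.55 in the control. Downstream replicate 2 stood apart at 8.65, against 7.19 to 7.42 in the other downstream samples. The BMP5 probe was well above background in 3 of the 4 controls. KIAA1324L (-1.74 ± 0.32), the prothrombinase FGL2 (-1.53 ± 0.32) and the anchoring protein AKAP12 (-1.03 ± 0.23) were lower in 4 of 4 pairs without overlap (limma adjusted p = 0.114, 0.121 and 0.13). The other tested probe of KIAA1324L gave a mean pair difference of only -0.49. The 3 tested probes ranged from -1.03 to -0.55 for AKAP12 and from -1.68 to -1.53 for FGL2. PDK4, a kinase that holds back glucose oxidation, had differences of -3.17, -3.28 and -3.22 in pairs 1, 2 and 4, and 0.69 in pair 3.

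Day 5 gave the same contrast in other samples. There too 0 features passed the adjusted threshold (limma, lowest adjusted p = 0.425), with 1929 higher (5.78%) and 1410 lower (4.23%) at an unadjusted p under 0.05. Of the 2468 features higher at day 14 by that measure, 462 were also higher at day 5, which is 18.7% of the day 14 features and 24% of the day 5 features. For lower features it was 391, or 17.5% and 27.7%. Both days came from 1 fit with 1 estimate of the spread per feature, so these overlaps are not independent agreement. With the same limit, 12 of the 12 leading lower genes and 10 of the 12 leading higher ones kept their sign at day 5. Over all features 64.4% did. At an unadjusted p under 0.05 at day 5 it was 8 of the lower and 1 of the higher genes, beside 4.23% and 5.78% of all features. SCARA5 was lower at day 5 as well (-2.71 ± 0.50), and the quiescent fibroblast list had a median of -0.78. By contrast COL11A1 (0.38 ± 0.48), SOX9 (-0.24 ± 0.15), ACP5 (0.30 ± 0.67), MSR1 (0.32 ± 0.39) and ANKH, a pyrophosphate transporter of mineralising tissue (-0.26 ± 0.38), were near 0 at day 5, as were the medians of the osteoclast list (0.04) and the macrophage list (0.01). These values are differences between the sites, not levels. Mean levels at the anastomosis and downstream were 14.33 and 14.04 at day 5 for ACP5 and 15.68 and 12.46 at day 14. For MSR1 they were 12.25 and 11.93, then 12.22 and 10.16, and for COL11A1 7.46 and 7.08, then 9.66 and 7.07. For MSR1 the downstream mean was thus the one that moved, and changes of level between days were not tested. The change of the site difference between the days was tested directly, and 0 features passed (limma, lowest adjusted p = 0.984), with 1385 (4.15%) at an unadjusted p under 0.05. A change of the site difference was therefore not shown for any of these genes. DAPK1, a death-associated kinase, was among the genes with the lowest p of that change, with means of 10.51 at both sites at day 14 and a difference of -1.05 ± 0.19 at day 5. The cell cycle list, with a median of 0.90, had 11 of 26 members higher at day 5 at an unadjusted p under 0.05, beside 5.78% of all features.

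**Figure D4:**
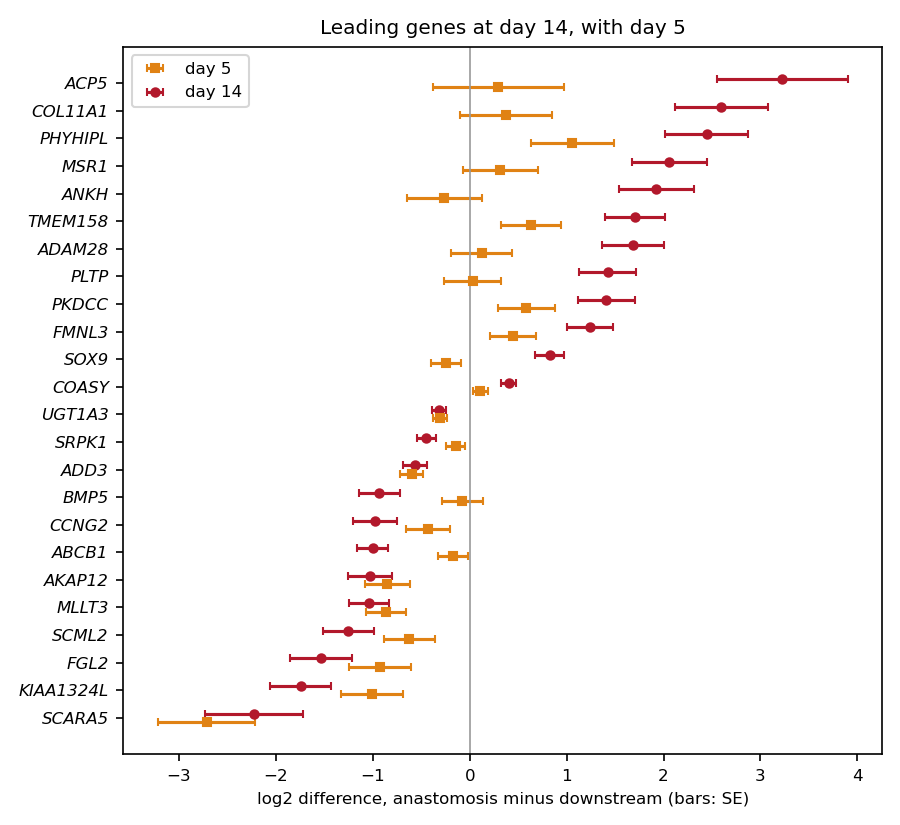
Log2 difference, anastomosis minus downstream (x axis, bars for SE, n = 4 per site and day), of the 24 genes with the lowest p at day 14 (y axis), at day 14 (red circles) and day 5 (orange squares). The day 5 values of SCARA5, ADD3 and UGT1A3 lay close to those of day 14, and those of ACP5, COL11A1, MSR1 and ANKH lay near 0.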

How the data were processed

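Total RNA of 24 vein samples was run on 16 Agilent pig arrays. The deposited scanner files hold spot intensity on a linear scale, and per the file headers Agilent software (Feature Extraction 10.5.1.1) read them with GE2 protocol 5.1 in replicates 1 and 2 and 5.2 in replicates 3 and 4. A deposited table of log2 values from the authors, not centred per gene, had column medians of 7.34 to 7.42, and its making is not described in the labels. Jugular controls were Cy3 and share arrays with the anastomosis samples.

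Intensities were corrected with normexp (offset 50), then normalised by loess within and Aquantile between arrays in limma 3.58.1 (R 4.3.3). Outlier spots were left out. Of 43603 probes, 9119 (20.9%) had a symbol through the files and gene tables; the brightest probe stood for a gene. Features detected well above background by 4 or more of the 24 samples entered 1 limma fit (lmFit, eBayes) of all samples, with group and replicate number within day as a block (12 residual degrees of freedom), tested two-sided with Benjamini-Hochberg adjustment at 0.05. The method was tested on simulated data. Same-numbered sites deviated together (r of 0.19 to 0.73 over 8 pairs of anastomosis and downstream samples), which a shared slide could also give.

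Members, the 35 lists and tests were chosen with earlier results of these data known. Named were the 12 genes per direction with the lowest p and 4 agreeing pairs, 2 genes per list, 28 preset genes (MKI67 had no tested probe) and the 4 lowest p per direction of the change between days. The number of arrays limits the precision. Alternatives covered background correction, normalisation, filters, probes, samples, block and the deposited table.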

Additional observations from a re-analysis of the deposited data

Results flagged for a closer look

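In groups of 4, a sample was singled out where its gap to the nearest other took up most of the group's range (Dixon's ratio above 0.829). Of 218 groups of named genes, 10 were singled out, and chance gives about 1 in 20. At the anastomosis these were CEBPA, SRPK1 and SDC2 in replicate 3 (14.68, 9.49 and 13.55), MMP14 and NDUFA2 in replicate 2 (15.22 and 13.70) and XBP1 in replicate 1 (14.14). In the downstream vein they were BMP5 and CD163 in replicate 2 (8.65 and 12.28) and CNN1 and FBN1 in replicate 1 (16.90 and 13.55).

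The Cy3 channel of the 4 downstream arrays has no sample in the labels and was not compared as a sample. The within-array normalisation did use it, so it touches each downstream value. With quantiles of the Cy5 channels alone, 0 features passed at day 14 (limma, lowest adjusted p = 0.436, 6 residual degrees of freedom). In that Cy3 channel, 57.0%, 70.0%, 82.4% and 76.6% of probes were well above background for replicates 1 to 4.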

How the results depend on the processing

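With all samples, 0 features passed at day 14 under the other background corrections, normalisations, filters and probe rules. Leaving out a replicate gave 0 to 436 features at day 14 (436 without replicate 3), 0 to 1 at day 5 and 0 for the change between days; without anastomosis replicate 3 alone it was 642, 0 and 0. The deposited table gave 8 at day 14 and 9 for the change, and 1 at day 14 and 1 at day 5 without its replicate-4 columns, which do not follow the scanner files. Processed signals gave 1 at day 5. At an unadjusted p under 0.05, leaving out a replicate gave 3018 to 6359 features at day 14, 1254 to 3356 at day 5 and 777 to 1820 for the change. Without the replicate block these were 1546, 839 and 252, and no call changed. Replicates 3 and 4 alone gave 2385, 918 and 784. The 8 samples alone gave 2217 at day 14 and the 12 of that day 3094, with fewer degrees of freedom. For the change, Cy5 channels alone gave 902, deposited values gave 2290, and 2276 came from leaving out anastomosis replicate 3, which gave 6515 at day 14 and 3496 at day 5. Median centring put 63.1% of day 14 features at an unadjusted p under 0.05 on the higher side (52.4% otherwise) and 77.6% at day 5 (57.8%). The causes were not tested. Of 109 named genes, some of them chosen by low p in these samples, 27 passed without anastomosis replicate 3, beside 642 of all 33345 features. Of the 109, 48 had several tested probes, which differed in sign for 6.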
